A study of Mus musculus with 6 samples.

Results

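Genes that build the machinery of cell division and DNA replication were followed in the epididymal fat pad, a visceral white fat depot (eWAT), of mice fed a high-fat diet. The set was chosen by name, 40 genes in all, of which 22 act in mitosis and 18 in replication. For 38 of them the array had a row that names only that gene, 21 of the mitosis genes and 17 of the replication genes, out of 22180 genes with such a row. Ccnb1 had no row used here, and the row of Ccne2 also names a second gene and was left out. For each gene the row that was brightest over the 6 arrays on average was used. Only Rrm2 had a second row.

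The 6 arrays came from 3 wild-type mice (WT 1 to WT 3) and 3 mice with adipose-specific transgenic Blnc1 (Tg 1 to Tg 3), which encodes a long noncoding RNA first described in thermogenic fat cells. Both groups were C57BL/6 males of 8 months, and both had eaten the high-fat diet D12492 for 21 weeks, so there was no lean group. The promoter that drives the transgene was not given in the sources used here, and 0 rows were named Blnc1, so the genotype was taken from the labels alone. The labels call the replicates biological, and each array was taken as 1 mouse.

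A cell that commits to divide first copies its DNA in S phase and then separates the copies in mitosis. Origins are licensed when Cdc6 and Cdt1 load the ring of Mcm2 to Mcm7, the helicase motor, which the GINS complex then helps to activate. Polymerases travel with the sliding clamp Pcna on nucleotides made by ribonucleotide reductase, thymidylate synthase and thymidine kinase. Mitosis is driven by Cdk1 with its A and B type cyclins and ends when the anaphase-promoting complex, helped by Cdc20 and Ube2c, marks cyclin B for destruction. Mature adipocytes rarely divide. In obese fat, macrophages, adipocyte progenitors, endothelial cells and lymphocytes are the cells known to cycle. Which cells of the whole tissue held the members' transcripts, and whether those cells were cycling, was not measured here.

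Replication and mitosis genes are classically switched on through different promoter elements, and the members' promoters are shown because they separate the 2 groups without use of the arrays. Sequences were taken from RefSeq (build GRCm38.p6), which had a promoter for 32 of the 40 members, in windows of 250 bases before to 50 bases after the gene's start. Mcm7 and Uhrf1 had a pair of windows each, which gave 17 mitosis and 17 replication windows. Aurkb, Ccna2, Foxm1, Kif20a, Tpx2, Ccne2, Gins2 and Mcm4 had none. The motifs searched on both strands were the cell cycle homology region (CHR, TTTGAA), the CCAAT box that binds NF-Y (CCAAT) and an E2F motif (TTTNNCGC). In the lines below, which show 170 bases before the start and the first 12 after it, capitals mark every match to any of the 3.

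The 4 promoters of mitosis genes are those of Cenpf (kinetochore) and Bub1b (spindle checkpoint), the members of that group with a promoter entry and the smallest p, and of Kif11 and Cdk1, chosen for their motifs. Cenpf lies at chr1:189688075-189688256 (minus strand), Bub1b at chr2:118598041-118598222 (plus strand), Kif11 at chr19:37376212-37376393 (plus strand) and Cdk1 at chr10:69352901-69353082 (minus strand).
Cenpf: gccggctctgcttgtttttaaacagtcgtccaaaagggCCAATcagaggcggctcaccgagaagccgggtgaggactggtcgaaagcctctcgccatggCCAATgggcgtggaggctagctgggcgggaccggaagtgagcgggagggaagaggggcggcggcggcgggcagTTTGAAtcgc
Bub1b: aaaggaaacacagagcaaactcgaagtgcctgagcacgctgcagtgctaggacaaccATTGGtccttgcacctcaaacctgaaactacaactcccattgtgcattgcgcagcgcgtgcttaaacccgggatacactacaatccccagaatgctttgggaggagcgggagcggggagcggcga
Kif11: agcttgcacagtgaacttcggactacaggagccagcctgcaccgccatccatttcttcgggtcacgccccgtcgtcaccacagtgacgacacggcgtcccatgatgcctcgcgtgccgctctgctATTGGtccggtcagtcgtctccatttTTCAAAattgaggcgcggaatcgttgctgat
Cdk1: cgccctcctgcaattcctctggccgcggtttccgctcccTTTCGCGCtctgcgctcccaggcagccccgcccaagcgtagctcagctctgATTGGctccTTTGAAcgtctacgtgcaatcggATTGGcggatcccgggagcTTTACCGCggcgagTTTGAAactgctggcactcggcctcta

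The CHR of Kif11 begins 19 bases before the start and its CCAAT box 45 bases before it, and Cdk1 has a CHR 15 bases before the start with CCAAT boxes at 48 and 80. In Cdk1 the E2F motif matched as well, 29 and 131 bases before the start, and it was the only mitosis promoter with such a match. The CHR of Cenpf begins 2 bases past the first base of the gene, and that of Bub1b, 40 bases past it, lies beyond the stretch shown.

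The 4 promoters of replication genes are those of Rrm2 (ribonucleotide reductase) and Mcm5 (helicase), which had the smallest p in that group, and of Mcm6 and Pcna, chosen after their motifs or values were seen. Rrm2 lies at chr12:24708084-24708265 (plus strand), Mcm5 at chr8:75109339-75109520 (plus strand), Mcm6 at chr1:128359694-128359875 (minus strand) and Pcna at chr2:132253169-132253350 (minus strand).
Rrm2: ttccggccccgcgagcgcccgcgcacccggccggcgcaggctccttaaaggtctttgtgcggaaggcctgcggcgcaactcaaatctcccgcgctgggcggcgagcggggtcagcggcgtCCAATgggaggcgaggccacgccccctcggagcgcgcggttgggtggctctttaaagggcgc
Mcm5: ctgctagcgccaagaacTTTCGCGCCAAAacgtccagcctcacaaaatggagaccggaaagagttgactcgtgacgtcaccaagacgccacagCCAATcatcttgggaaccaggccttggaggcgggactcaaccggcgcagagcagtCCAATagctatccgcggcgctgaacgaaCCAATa
Mcm6: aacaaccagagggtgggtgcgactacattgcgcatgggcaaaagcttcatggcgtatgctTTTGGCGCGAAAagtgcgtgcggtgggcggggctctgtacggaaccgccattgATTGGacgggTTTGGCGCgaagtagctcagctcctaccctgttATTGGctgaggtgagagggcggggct
Pcna: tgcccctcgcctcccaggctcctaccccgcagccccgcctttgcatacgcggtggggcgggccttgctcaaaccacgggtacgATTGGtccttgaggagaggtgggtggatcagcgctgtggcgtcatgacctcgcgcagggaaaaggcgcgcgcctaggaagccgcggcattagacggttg

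In Mcm5, overlapping E2F matches begin 153 and 149 bases before the start, and Mcm6 has 3 such matches, at 110, 106 and 47 bases before it. Rrm2 and Pcna held a CCAAT box and neither of the other motifs in this window. Over the whole groups, a CHR was found in 12 of 17 mitosis windows (70.6%) and 1 of 17 replication windows (5.88%, that of Mcm2), against 17.9% of all 32851 windows in the table. The E2F motif was found in 1 of 17 mitosis windows (5.88%) and 9 of 17 replication windows (52.9%), against 5.17% of all. CCAAT boxes were found in 88.2%, 64.7% and 37.4%, and all 12 mitosis windows with a CHR also had a CCAAT box. Matches of different motifs overlapped in 1 member window, of Mcm7. Median GC content was 58.7% and 58.3% in the 2 groups and 52.7% over all windows. These are matches of letters, not measured binding.

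**Figure D1:**
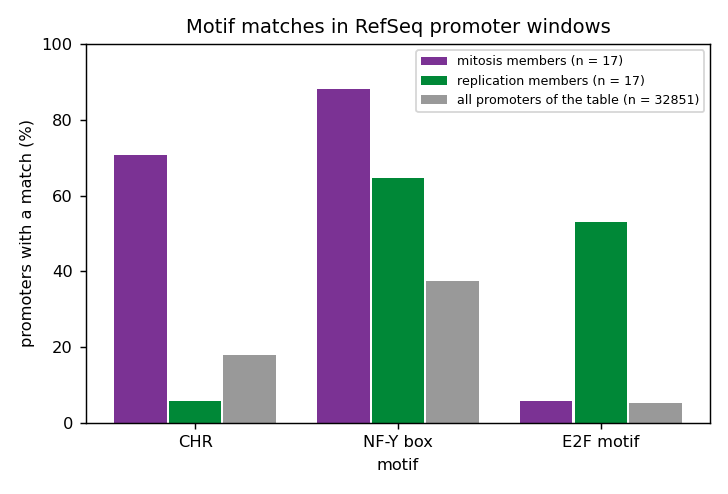
Share of promoter windows (%) with at least 1 match to each motif on either strand, for 17 mitosis windows, 17 replication windows and all 32851 windows; the NF-Y box is the CCAAT box. The CHR bar is tallest for mitosis genes (70.6%) and the E2F bar for replication genes (52.9%).

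The arrays measured log2 signals with medians between 2.64 and 2.75 over 41345 rows, and the members' means over the 6 arrays lay between 3.60 and 9.03. The 8 white adipocyte markers, checked for the tissue label, averaged 9.73 to 10.41 per array. Of 11 measured markers of the epididymis, Gpx5 and Lcn9 were high in Tg 2 (10.77 and 9.87), and the mean of the 11 was 5.65 in Tg 2 and 1.13 to 1.62 in the other 5. Not all of the 11 were raised there: Rnase9 and Spint4 each read 0.77 in Tg 2. Serpina1f and Spink8, 2 epididymal genes chosen after their values were seen, read 6.55 to 8.09 in WT 2 and WT 3 and 1.16 to 2.53 elsewhere. Defb42 and Pax8, chosen in the same way, read 4.37 to 5.67 in WT 2, WT 3 and Tg 2 and 0.93 to 2.86 elsewhere. Male germ cell markers were near the floor, with means of 1.14 to 1.32 over 6 genes. Results are therefore also given without single arrays, and for WT 1, Tg 1 and Tg 3 alone. Of these arrays, Tg 1 still read 3.22 for Gpx5, against 0.95 in WT 1 and 0.97 in Tg 3.

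The means of 34 of the 38 members were lower in Tg than in WT (89.5%, against 50.0% of all 22180 genes and 54.3% of the 11251 genes as bright as the dimmest member or brighter). The differences were small. Their median was -0.17 on the log2 scale, or 1.13-fold, where all genes had a median of 0.00, and they ran from -0.47 for Rrm2 to 0.18 for Gins2. The median moved with single arrays, to -0.097 without Tg 1 and -0.11 without WT 1, with 31 of 38 lower in each case. It was -0.11 with each array centred on its median and -0.33 over WT 1, Tg 1 and Tg 3 alone. That subset has 1 WT array. Of the 38 members, 19 were highest in WT 1 (14.7% of all genes) and 24 were lowest in Tg 1 (18.7% of all genes). In limma, 0 members passed an adjusted p of 0.05, as did 0% of all 41345 rows (4263 rows had an unadjusted p under 0.05). Adjusted p-values of the members lay between 0.33 and 0.97. At an unadjusted p under 0.05 there were 5 members, all lower in Tg (13.2% of 38, against 4.51% of all genes and 6.25% of the brighter ones lower in Tg at that p); 0 were higher, where 5.31% of all genes and 7.42% of the brighter ones were. No member therefore counts as changed, and the values below describe these 6 mice. An exact permutation test of 3 against 3 arrays could not give a 2-sided p below 0.1.

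In 9 of the 38 members all 3 Tg arrays read below all 3 WT arrays (23.7%), a pattern seen in 9.39% of all genes and in 13.7% of the genes as bright as the dimmest member or brighter. They were 3 mitosis genes, Aurkb, Bub1b and Cenpf, and 6 replication genes, Mcm3, Mcm4, Mcm5, Mcm6, Pcna and Rrm2. In 0 members did all Tg arrays read above all WT arrays, against 8.85% of all genes and 11.5% of the brighter ones. As a share, this was 14.3% of the mitosis genes, near the 13.7% of genes of such brightness, and 35.3% of the replication genes. With each array centred on its median or quantile-normalized, 6 of the 9 remained (Aurkb, Cenpf, Mcm3, Mcm5, Pcna and Rrm2). The count was 20 without WT 2 and 15 without Tg 2. Fewer arrays make this pattern easier to meet. The share over all genes was not computed for arrays left out or renormalized, so these counts have no background beside them.

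**Figure D2:**
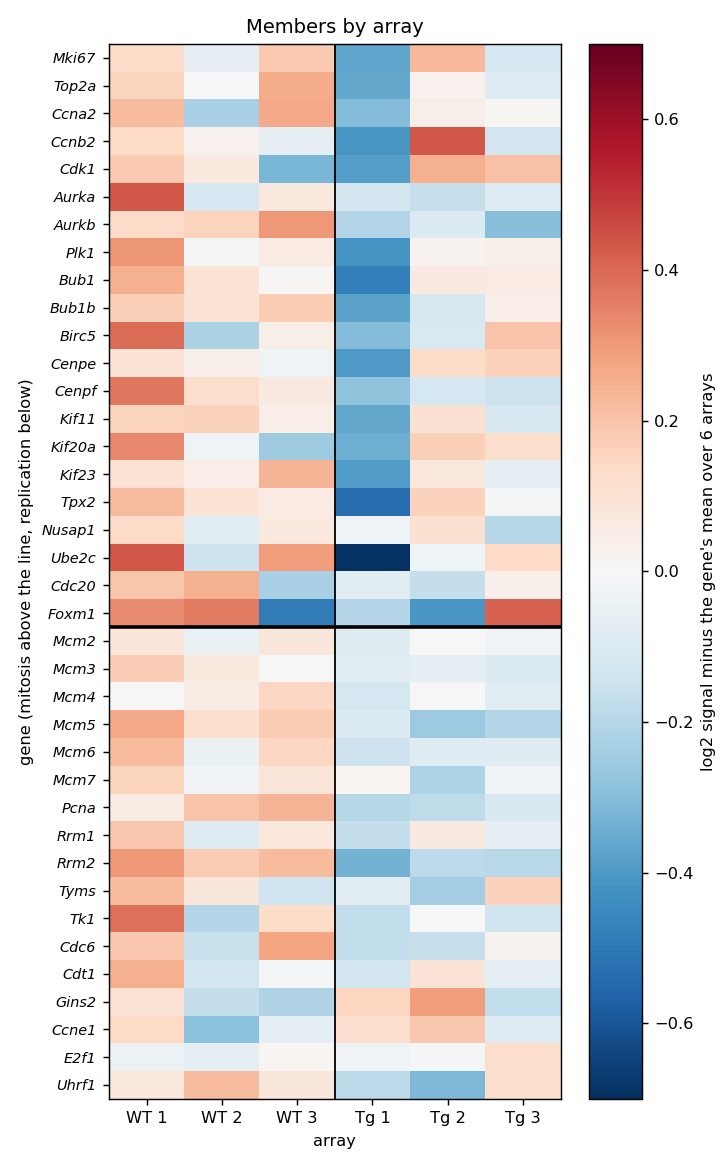
Log2 signal of each of the 38 members on each array, shown as the difference from that gene's mean over the 6 arrays, with mitosis genes above the thick line and replication genes below it. The column of Tg 1 is blue for most mitosis genes, while Mcm5, Pcna and Rrm2 are blue in all 3 Tg columns.

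Among the replication genes, the helicase subunits were lower in Tg in 6 of 6 cases, with a median difference of -0.15. Mcm5 had the largest difference of the 6. Its log2 signal, given here and below in the order of replicates 1, 2 and 3, was 6.26, 6.11 and 6.17 for WT and 5.90, 5.74 and 5.79 for Tg. Every Tg value was thus below the lowest WT value. The difference was -0.37 ± 0.10 (SE, n = 3 per group; 1.29-fold; unadjusted p = 0.0084, limma adjusted p = 0.35). Mcm6 read 6.14, 5.87 and 6.06 in WT and 5.77, 5.83 and 5.84 in Tg, and Mcm3 6.85, 6.75 and 6.68 against 6.60, 6.62 and 6.58. Both were apart, by gaps smaller than the range of the WT arrays. Their differences were -0.21 ± 0.11 and -0.16 ± 0.09. Mcm4 (-0.13 ± 0.10) was also apart, and Mcm7 (-0.15 ± 0.11) and Mcm2 (-0.08 ± 0.09) overlapped.

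Gins2, a subunit of the GINS complex that activates the helicase, went the other way. It read 5.10, 4.83 and 4.79 in WT and 5.15, 5.29 and 4.83 in Tg, so the groups overlapped. The difference was 0.18 ± 0.16 with an adjusted p of 0.72 in limma, and -0.11 in WT 1, Tg 1 and Tg 3 alone. The licensing factors Cdc6 (-0.20 ± 0.14) and Cdt1 (-0.07 ± 0.13), which load the helicase at origins, overlapped between the groups.

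Pcna, the clamp that holds polymerases on DNA, was apart. Its values were 9.08, 9.24 and 9.27 in WT and 8.84, 8.86 and 8.92 in Tg. The 3 Tg mice lay close together and below all WT mice. The difference was -0.33 ± 0.10 (1.25-fold; unadjusted p = 0.015, limma adjusted p = 0.38).

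Among genes of nucleotide supply, Rrm2, the regulatory subunit of ribonucleotide reductase that is made in S phase, had the largest difference of all members. It read 5.15, 5.02 and 5.07 in WT and 4.52, 4.66 and 4.65 in Tg. The groups were apart by more than the range within either. The difference was -0.47 ± 0.10 (1.39-fold; unadjusted p = 0.0023, limma adjusted p = 0.33). A second, much dimmer Rrm2 row, with group means of 0.64 in WT and 1.02 in Tg, differed by 0.38 ± 0.21 in the other direction, and over the mean of both rows the groups overlapped with a difference of -0.05. The catalytic subunit Rrm1, which persists through the cycle, read -0.11 ± 0.12, the salvage enzyme Tk1 -0.21 ± 0.16 and thymidylate synthase Tyms -0.10 ± 0.15, each with overlapping groups.

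E2f1 and Ccne1, which regulate S phase entry, had means slightly higher in Tg. E2f1, the transcription factor that turns on many replication genes, read 5.03, 5.01 and 5.09 in WT and 5.05, 5.06 and 5.20 in Tg. Ccne1, the cyclin E that fires Cdk2 at the start of S phase, read 4.32, 3.89 and 4.11 in WT and 4.30, 4.37 and 4.09 in Tg. Neither gene separated the groups. Their differences were 0.06 ± 0.09 and 0.14 ± 0.14, with limma adjusted p-values of 0.86 and 0.77. For Ccne1 the sign was the other way (-0.13) in WT 1, Tg 1 and Tg 3 alone. Uhrf1, which keeps DNA methylation on copied strands, was lower in Tg 1 and Tg 2 but not in Tg 3, with values of 5.61, 5.75 and 5.61 in WT and 5.35, 5.22 and 5.65 in Tg.

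Split by promoter, the 8 measured replication genes with an E2F match had a median difference of -0.18 (range -0.37 to -0.07), and the 7 without one had -0.11 (range -0.47 to 0.14). Among the mitosis genes, the 12 with a CHR had a median of -0.25 (range -0.39 to 0.04) and the 4 without one -0.11 (range -0.24 to -0.07). The ranges overlapped in both splits.

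The mitosis genes were lower in Tg in 20 of 21 cases with a median of -0.23 (1.18-fold), but the arrays of a group spread widely. The general proliferation marker Mki67, which coats mitotic chromosomes, read 8.01, 7.82 and 8.06 in WT and 7.51, 8.10 and 7.75 in Tg. Its highest value of all 6 arrays was in Tg 2 and its lowest in Tg 1. The difference was -0.17 ± 0.17 (limma adjusted p = 0.76). Top2a, the topoisomerase that untangles sister DNA, read 6.30, 6.14 and 6.40 against 5.78, 6.17 and 6.05, a difference of -0.28 ± 0.14. Only Tg 1 and Tg 3 were below all WT arrays.

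The Cdk1 engine showed no common direction. Cdk1 read 5.01, 4.90 and 4.51 in WT and 4.44, 5.08 and 5.03 in Tg, with the Tg arrays at both ends of the range. Ccnb2, a B type cyclin, read 7.20, 7.10 and 7.0 in WT and 6.66, 7.50 and 6.94 in Tg, and Ccna2 differed by -0.17 ± 0.17. The differences of Cdk1 and Ccnb2 were 0.04 ± 0.22 and -0.07 ± 0.22. Foxm1, the factor that turns on genes of this phase, varied as much within groups, from 3.45 to 4.30 in WT and from 3.53 to 4.36 in Tg.

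Of the mitotic kinases, Aurkb, the catalytic part of the chromosomal passenger complex, had the largest difference among the mitosis genes. It read 5.29, 5.31 and 5.46 in WT and 4.95, 5.06 and 4.86 in Tg, with Tg 3 the lowest. The groups were apart, and the difference was -0.40 ± 0.11 with all arrays and -0.39 without Tg 1 (1.32-fold with all arrays; unadjusted p = 0.0080, limma adjusted p = 0.35). Its partner Birc5 (survivin) differed by -0.14 ± 0.20. Aurka, the spindle pole kinase, read 5.39, 4.84 and 5.03 against 4.83, 4.80 and 4.87, so that the Tg arrays were close together and 2 of them just below the lowest WT array. Plk1 differed by -0.23 ± 0.16.

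At the kinetochore, where chromosomes meet the spindle, Cenpf read 4.78, 4.52 and 4.47 in WT and 4.12, 4.28 and 4.25 in Tg. The groups were apart, with a difference of -0.37 ± 0.12 (1.29-fold; unadjusted p = 0.019, limma adjusted p = 0.40). The motor Cenpe (-0.07 ± 0.17) overlapped. The checkpoint kinase gene Bub1b read 5.10, 5.03 and 5.11 in WT and 4.56, 4.82 and 4.98 in Tg, with the highest Tg array just below the lowest WT array (-0.29 ± 0.13). Its partner Bub1 overlapped at -0.24 ± 0.17, with Tg 1 at 3.96 and the other 5 arrays between 4.44 and 4.69.

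The spindle motors and assembly factors Kif11, Kif23, Tpx2, Nusap1 and Kif20a were all lower in mean, by -0.26 to -0.04, and all 5 overlapped between the groups. The direction for Kif20a, a motor of the late spindle, was the other way under all 3 renormalizations of the arrays. Of the genes that end mitosis, Ube2c read 6.02, 5.44 and 5.88 in WT and 4.90, 5.56 and 5.73 in Tg. Its difference of -0.39 ± 0.26 was among the largest of the group, and it came with the widest spread in Tg. Cdc20 differed by -0.14 ± 0.15.

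**Figure D3:**
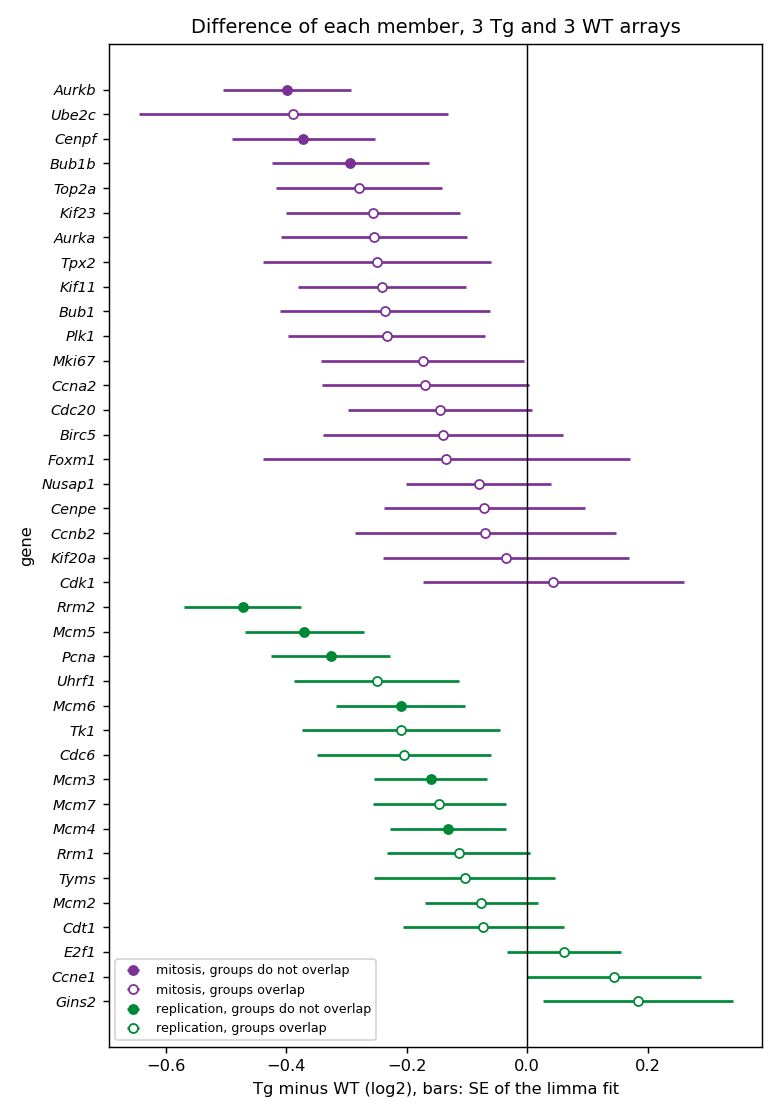
Difference of each of the 38 members between Tg and WT on the log2 scale (points) with its SE from the limma fit (bars), mitosis genes in purple and replication genes in green, filled where the 3 Tg arrays all read below the 3 WT arrays. The filled points are 3 mitosis and 6 replication genes, and the bars of the replication genes are mostly shorter.

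The shift of replication and of mitosis genes was spread over the mice in different ways. Within groups, the median SD of a mitosis gene was 0.22 and that of a replication gene 0.11, beside 0.13 for all genes as bright as the dimmest member or brighter. Tg 1 was the lowest of the 6 arrays in 16 of 21 mitosis genes (76.2%) and in 8 of 17 replication genes (47.1%), where it was the lowest in 18.7% of all genes and 23.3% of the brighter ones. WT 1 was the highest in 9 and 10 of them, against 14.7% of all genes and 13.9% of the brighter ones.

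As means over the genes, each relative to its own 6-array mean, the mitosis genes read 0.23, 0.03 and 0.04 in the WT arrays and -0.33, 0.03 and 0.01 in the Tg arrays. Tg 2 and Tg 3 were level with WT 2 and WT 3. The replication genes read 0.16, -0.02 and 0.07 in WT and -0.10, -0.06 and -0.05 in Tg. As deposited, all 3 Tg arrays were thus below all 3 WT arrays, WT 2 and Tg 3 by the least. The medians of WT 2 and Tg 3 over all rows, 2.75 and 2.64, differed by more than this gap. Centring each array on its median would therefore reverse the order of WT 2 and Tg 3. The replication mean minus the mitosis mean was 0.23 in Tg 1 and between -0.09 and 0.04 in the other 5 arrays.

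Without Tg 1 the median difference was -0.084 for the mitosis genes, with 17 of 21 lower, and -0.16 for the replication genes, with 14 of 17 lower. The order of the medians thus turned on 1 array: replication minus mitosis was 0.09 with all arrays and -0.077 without Tg 1, beside a pooled SD of 0.13 within groups for this difference on single arrays. Without WT 1 the mitosis median was -0.14. Over WT 1, Tg 1 and Tg 3 alone, which has 1 WT array, the medians were -0.39 and -0.21 and 37 of 38 members were lower. Centring each array on its median moved the medians to -0.17 for mitosis and -0.081 for replication.

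**Figure D4:**
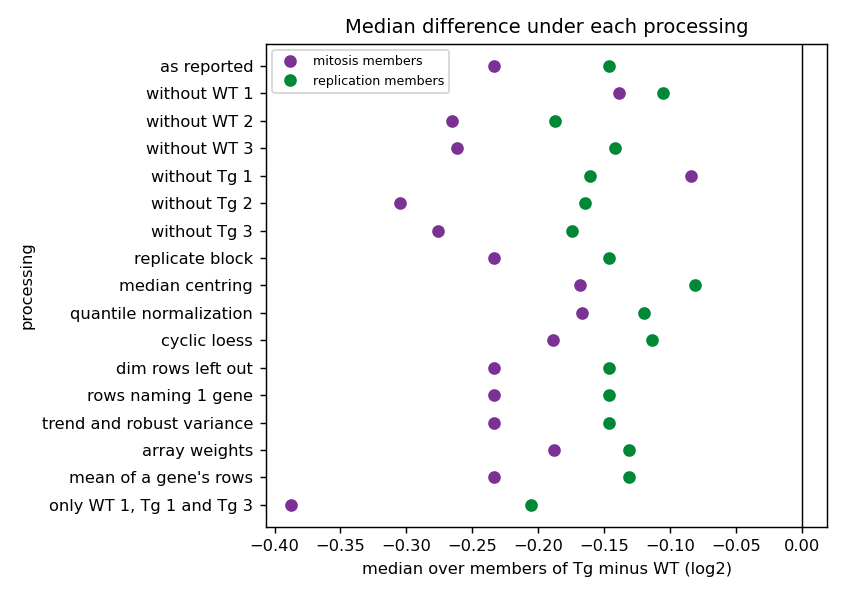
Median over the members of the difference between Tg and WT (log2) with the data as reported and under each alternative processing, for mitosis genes (purple) and replication genes (green). All medians are below 0, and the mitosis median is closer to 0 than the replication median only without Tg 1.

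The same pattern was looked for in further genes of these pathways. Of 39 further mitosis genes, 26 were lower in Tg (66.7%, against 50.0% of all genes and 54.3% of the brighter ones). The median of the 39 was -0.14, and without Tg 1 it was -0.02. Tg 1 was the lowest array in 26 of the 39. None of the 39 passed in limma, with 1 lower and 1 higher at an unadjusted p under 0.05 (4.51% and 5.31% of all genes). Groups were apart downward in 3 (7.69%, against 9.39% of all genes and 13.7% of the brighter ones). They were apart upward in 1 (8.85% and 11.5% of those genes). Kif4, a chromosome motor, read 3.84, 4.20 and 4.10 in WT and 2.58, 3.66 and 3.58 in Tg (-0.77 ± 0.30), and Racgap1, of the cell cleavage apparatus, differed by -0.30 ± 0.14. Spc25, a kinetochore subunit, went the other way, at 5.08, 4.96 and 5.16 in WT and 5.46, 5.25 and 5.36 in Tg (0.29 ± 0.11). Limma adjusted p-values of the 3 were 0.46, 0.53 and 0.45.

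Of 30 further replication genes, 23 were lower in Tg (76.7%, against 50.0% of all genes and 54.3% of the brighter ones). The median of the 30 was -0.095 (-0.058 without Tg 1). Groups were apart downward in 6 (20%, against 9.39% of all genes and 13.7% of the brighter ones) and upward in 0. At an unadjusted p under 0.05 there were 3 (10%, against 4.51% and 6.25%), all lower in Tg, and 0 passed in limma. Rfc2, a subunit of the loader that places Pcna on DNA, read 5.72, 5.67 and 5.73 in WT and 5.29, 5.36 and 5.38 in Tg. The values of each group lay close together and apart from the other group's, and the difference was -0.37 ± 0.09 (adjusted p = 0.34). Lig1, the ligase that seals new strands, differed by -0.28 ± 0.10 and Dbf4, the partner of the Cdc7 kinase that fires origins, by -0.28 ± 0.12, both with groups apart.

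Genes that let cells into the cycle or hold them back went both ways. Of 27 measured, 19 were lower in Tg (70.4%, against 50.0% of all genes and 54.3% of the brighter ones) and 8 higher. The median of the 27 was -0.08, and 0 passed in limma. The groups were apart downward in 5 (18.5%, against 9.39% of all genes and 13.7% of the brighter ones) and upward in 4 (8.85% and 11.5% of those genes). At an unadjusted p under 0.05, 3 were lower (11.1%, against 4.51% and 6.25%) and 2 higher (5.31% and 7.42% of those genes). Ccnd2, a D type cyclin that also responds to insulin and growth factors, was higher in Tg. It read 9.05, 9.07 and 8.75 in WT and 9.68, 9.25 and 9.63 in Tg, a difference of 0.56 ± 0.16 (1.47-fold, adjusted p = 0.37). Ccnd1, its close relative, read 7.32, 7.25 and 7.62 in WT and 7.10, 7.09 and 7.19 in Tg (-0.27 ± 0.13), so these D type cyclins were apart in opposite directions. The inhibitor Cdkn2b was higher (0.33 ± 0.11) and the pocket protein gene Rbl1 lower (-0.28 ± 0.10), both with groups apart. Cdk6, the D cyclins' kinase, and the inhibitor Cdkn1c, named after their values were seen, were also lower (-0.29 ± 0.11 and -0.37 ± 0.15). Cdkn1a (p21), a brake set by p53, read 9.88, 9.97 and 9.90 in WT and 9.70, 10.11 and 9.93 in Tg, a difference of -0.0021 ± 0.13. Cdkn2a, a marker of senescence, differed by -0.13 ± 0.16.

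Markers of the cells that may hold these transcripts were read on the same arrays. In whole tissue, fewer cycling cells and less of the RNA in each cannot be told apart. Macrophage markers, the most abundant immune signal, were lower in Tg in 8 of 8 genes with a median of -0.26, and 7 had groups apart (87.5%, against 9.39% of all genes and 13.7% of the brighter ones). Their summed linear signal was 11647 to 12513 in WT and 10263 to 10476 in Tg. Their array means were 0.07, 0.15 and 0.23 in WT and -0.10, -0.20 and -0.14 in Tg. Of the 8 markers, 3 were lowest in Tg 1, 3 in Tg 2 and 2 in Tg 3. Their part in the members' values was not tested.

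Marker means of other cell types differed too, but 0 markers passed in limma. Groups overlapped in 8 of 8 T and NK cell, 7 of 7 B and plasma cell and 7 of 8 endothelial markers. They were apart downward in 7 of 8 mast cell (87.5%) and 3 of 8 neutrophil markers (37.5%). All genes gave 9.39% and the brighter ones 13.7%. They were apart upward in 5 of 8 white adipocyte markers, against 8.85% of all genes and 11.5% of the brighter ones. Neutrophil marker levels ran from 0.67 to 5.88. White adipocyte markers were higher in 8 of 8, summing to 11694 to 13574 in WT and 13880 to 15737 in Tg, with Tg 1 highest, and endothelial markers were higher in 8 of 8 (2342 to 3429 and 3394 to 3943). Mast cell markers were lower in 8 of 8 (1246 to 2403 and 605 to 852), T and NK cell markers in 8 of 8 (193 to 859 and 190 to 324), B and plasma cell markers in 7 of 7 (281 to 743 and 203 to 485) and neutrophil markers in 5 of 8 (102 to 116 and 72 to 84). Relative to their 6-array means, T and NK cell markers read -0.72, 0.67 and 1.33 in WT and 0.03, -0.58 and -0.73 in Tg. Progenitor (4 of 7 lower) and mesothelial markers (2 of 8 lower) had medians of -0.10 and 0.08. On a log2 scale after RMA no marker has a true zero. The part of these cells in the members' values was not tested. Of the epididymal genes, Gpx5 and Lcn9 were high in Tg 2, and Serpina1f and Spink8 in WT 2 and WT 3. Defb42 and Pax8 were higher in WT 2, WT 3 and Tg 2 than in the other arrays. The part of epididymal tissue in the members' values was not tested either.

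**Figure D5:**
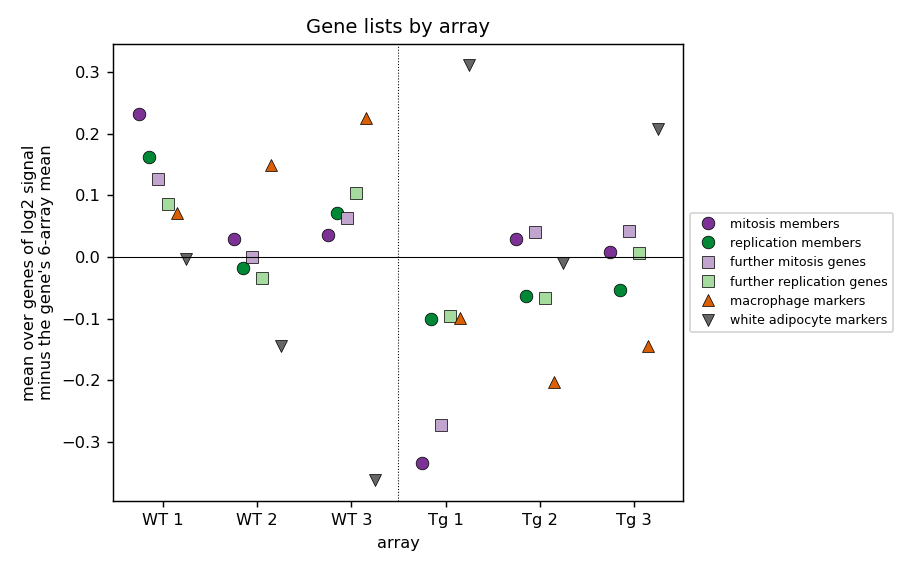
Mean over the genes of each list of the log2 signal relative to the gene's own 6-array mean, by array, for the members, the further pathway genes and 2 marker lists. Mitosis genes are lowest in Tg 1 (-0.33) and level with WT 2 and WT 3 in Tg 2 and Tg 3; macrophage markers are below 0 in all 3 Tg arrays and adipocyte markers are highest in Tg 1.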

How the data were processed

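RNA of 6 eWAT samples was labelled for Affymetrix whole-transcript arrays from 400 ng of total RNA, per the labels. The deposited values are log2 signals, 1 per row and array. RMA and limma are named in the submitters' processing notes; versions, filters and build are not given in the sources used here. RMA normalizes between arrays, which hides any difference in overall RNA amount, and low signals are compressed. Depth does not apply to arrays: their number, 3 per group, limits the precision. Rows were named through the platform's gene annotation, and only rows naming 1 gene were used for members.

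Tg was compared with WT on all 41345 rows using R 4.3.3 and the linear models with moderated variance of limma 3.58.1. Tests were 2-sided, with Benjamini-Hochberg adjustment over all rows and a threshold of 0.05. In simulated data with independent noise, the procedure recovered 59% of 100 rows changed 2-fold and 97% of 100 changed 4-fold, with 7 false calls. Changes under 2-fold, such as those of the members, were not simulated. Differences are Tg minus WT. All p-values are limma's. The members and the gene lists (3 further pathway lists, 11 marker lists) were chosen with earlier results of these data known, so lists are described by counts and medians with no test. Named genes are all measured members, the 3 genes of each further list with the smallest p, and Ccnd1, Cdkn1a and Cdkn2a. Alternatives covered arrays left out, scaling, filters, variance model, array weights and the replicate block. The p-values measure only the spread between these samples. Promoters were printed by smallest p, with 4 added after their motifs or values were seen.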

Additional observations from a re-analysis of the deposited data

How the results depend on the processing

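Each result was recomputed with each array left out, with the replicate number as a block, under 3 renormalizations, without dim rows, over rows naming 1 gene, with another variance model, with array weights, over the mean of a gene's rows and, added after seeing the data, over WT 1, Tg 1 and Tg 3 alone. In limma 0 rows passed in all 16, and both medians stayed below 0. The medians ranged from -0.30 to -0.08 (mitosis) and -0.19 to -0.11 (replication) over the arrays left out. Over the same arrays left out, replication minus mitosis ranged from -0.077 (without Tg 1) to 0.14. The count of members with groups apart ranged from 9 to 20 (without WT 2), with 15 without Tg 2. Groups are apart more easily with fewer arrays, and the share over all genes was not computed there. The count at an unadjusted limma p under 0.05 ranged from 4 to 9 (without WT 2). Over all 41345 rows, 3104 had such a p without WT 2 and 4263 with all arrays. The count with groups apart was 6 with median centring and with quantile normalization, 7 with cyclic loess and 8 over the mean of a gene's rows. Over WT 1, Tg 1 and Tg 3 it was 32, where 1 WT array makes it easy to meet, and replication minus mitosis was 0.18. Of 608 member values, 591 kept their direction. Many of these could not turn: the replicate block, the row filters and the variance model leave each difference unchanged by construction. The mean of a gene's rows could alter only Rrm2. Directions turned for Kif20a (0.029 with median centring, 0.0047 with quantile normalization and 0.0018 with cyclic loess; -0.17 to 0.13 over the arrays left out) and for Cdkn1a (0.063 with median centring; -0.10 to 0.10). Over WT 1, Tg 1 and Tg 3, Cdk1 was at -0.27, Gins2 at -0.11 and Ccne1 at -0.13. Over the arrays left out, Cdk1 ranged from -0.10 to 0.25, Ccnb2 from -0.30 to 0.12, Cenpe from -0.17 to 0.11, Foxm1 from -0.41 to 0.037, Birc5 from -0.29 to 0.019 and Cdt1 from -0.16 to 0.034. The cause was not tested. With the replicate block 0 rows passed. The medians stayed at -0.23 and -0.15, which this balanced design fixes in advance, so the block does not check them. The labels state no pairing of the mice, and none was assumed. Same-numbered arrays deviated from their group means with r of -0.04, 0.01 and -0.04 over all rows, which cannot exclude a pairing.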
